A study of Homo sapiens with 15 samples.

Results

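The genes described here encode the proteins of the cytosolic ribosome and of the mitochondrial ribosome, measured in BT474 breast cancer cells and in 4 T-DM1-resistant clones. BT474 is a human breast carcinoma line with amplified HER2 and a luminal character. T-DM1 (trastuzumab emtansine) couples a HER2 antibody to a maytansinoid that blocks microtubule assembly. Genes were chosen by symbol: RPL or RPS with a number and an optional letter, RPLP0, RPLP1, RPLP2, RPSA, and MRPL or MRPS with a number and an optional letter, without pseudogenes or RPS6K kinases. Of 158 protein-coding genes with such a symbol, 122 had a named probe set, among 14884 named genes in all, and 36 were not analysed here. The unmeasured genes were mostly cytosolic: a probe set was named for 31 of 49 cytosolic large-subunit, 18 of 32 cytosolic small-subunit, 48 of 49 mitochondrial large-subunit and 25 of 28 mitochondrial small-subunit genes. RPLP0, RPL3, RPL5, RPS4X and MRPL12 are among those not analysed here. RPL10L, a copy of RPL10 known from the testis, lay between 2.77 and 3.36 log2 units and did not pass the filter on dim probe sets, which left 121 genes.

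The groups were parental BT474, which is sensitive to the drug, and 4 resistant clones named C#1, C#2 and C#3 plus C#6. Each group had 3 arrays labelled as biological replicates. Resistant cells were selected by long exposure to T-DM1, cloned from single cells and kept in 5 nM T-DM1 for 3 months, and the labels do not say whether the drug was in the medium when RNA was taken. Each clone descends from 1 cell, so its replicates show the spread within 1 clone and not among resistant cells in general. The parental cells were not cloned, and an effect of resistance cannot be told apart from an effect of single-cell cloning, of culture time or of the drug in the medium. All values are log2 expression values, a change is the clone mean minus the parental mean, and a gene was called when the adjusted p of the limma test over 12147 genes was below 0.05. The number of arrays limits the precision: the standard error (SE) of a change was between 0.08 and 0.22 for these genes. Each clone was compared with the same 3 parental arrays, so the 4 comparisons are not independent of one another. Between C#1 and C#2, 0 of the 12147 genes were called, and whether these 2 clones are separate observations was not tested.

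The upper quartile of all probe sets lay between 5.94 and 5.96 in the parental arrays and between 5.80 and 5.89 in the clone arrays. The mean of all genes tested was 0.0327 to 0.0515 lower in the clones. Luminal and HER2 markers were present, with 12 of 14 passing the filter, and parental means of 10.33 for EPCAM and 10.79 for KRT19. Of 14 stromal, endothelial and immune markers, 2 passed the filter, CD14 and VWF, and neither was called in any clone. Of the 12 luminal and HER2 markers, 2 rose and 4 fell in C#1, 2 and 3 in C#2, 1 and 6 in C#3, and 2 and 5 in C#6. The shares called were 50% in C#1, 41.7% in C#2, 58.3% in C#3 and 58.3% in C#6. Those of all genes were 17.2%, 16.9%, 17.2% and 22.4% in the same order. The mean of the 12 markers lay between 9.51 and 9.56 in the parental arrays and between 9.03 and 9.40 in the clone arrays. GATA3, a luminal regulator, changed by -2.89, -3.14, -0.76 and -2.36 in the order C#1, C#2, C#3, C#6, an order kept wherever 4 values follow each other below. TFF1, an oestrogen-induced gene, rose by 0.70, 1.16, 0.58 and 1.51. PGR, the progesterone receptor gene, fell in C#1, C#2 and C#3 (-1.28, -0.97 and -1.43), the second of which was lost without 4 single arrays (adjusted p up to 0.0874). The part of such shifts in the results below was not tested. These are bulk RNA measurements, so less RNA per cell and fewer cells expressing a gene cannot be told apart.

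The cytosolic ribosome makes nearly all cellular protein, and its proteins are counted as RPL in the large subunit and RPS in the small subunit. Their messenger RNAs typically begin with a C followed by a run of pyrimidines, the 5′ terminal oligopyrimidine (TOP) motif, through which mTORC1 controls their translation, while MYC promotes their transcription. The mitochondrial ribosome is encoded for its proteins in the nucleus (MRPL and MRPS genes), is assembled in mitochondria, and makes only the few respiratory-chain subunits that mitochondrial DNA encodes. Many of its proteins descend from bacterial ribosomal proteins and others have no bacterial counterpart.

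The start sites of most cytosolic genes carried the pyrimidine motif and those of most mitochondrial genes did not. RefSeq promoter windows of build GRCh38.p14, from 250 bases before to 50 bases after the annotated start, matched 43 of the 48 cytosolic and 65 of the 73 mitochondrial genes tested. A C at the first transcribed base followed by at least 4 C or T was found on the sense strand in 28 of 43 cytosolic genes (65.1%), in 5 of 65 mitochondrial genes (7.69%) and in 4.04% of all 27305 promoters. The motif CCGGAA, a core that ETS-family factors such as GABPA recognise, was searched on both strands of the 250 upstream bases. It occurred in 44.2% of cytosolic and 44.6% of mitochondrial genes, against 14.8% of all promoters. TATAAA, searched in the same way, occurred in 4.65% and 3.08%, against 11.1%. A match is a description of the letters and not evidence of a bound site. The windows below show 40 bases before and 20 after the annotated start for genes that the results turn on, read 5′ to 3′ on the gene's strand, with the longest run of C and T at the start in capitals. RPS28, RPS26 and MRPL9 are shown because they were lower in each clone, RPL35A and RPL29 as lower and RPS27 and RPL36 as higher cytosolic genes, and MRPS33 and MRPS34 as the mitochondrial genes with large increases.
RPS28, chr19:8321456-8321515, plus strand: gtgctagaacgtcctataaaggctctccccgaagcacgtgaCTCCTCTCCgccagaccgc
RPS26, chr12:56041878-56041937, plus strand: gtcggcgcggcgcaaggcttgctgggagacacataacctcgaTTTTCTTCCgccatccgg
RPL35A, chr3:197950150-197950209, plus strand: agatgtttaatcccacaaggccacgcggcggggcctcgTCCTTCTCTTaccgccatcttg
RPL29, chr3:51995876-51995935, minus strand: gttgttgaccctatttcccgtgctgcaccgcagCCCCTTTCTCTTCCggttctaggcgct
RPS27, chr1:153990722-153990781, plus strand: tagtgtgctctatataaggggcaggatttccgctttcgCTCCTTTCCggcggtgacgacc
RPL36, chr19:5690255-5690314, plus strand: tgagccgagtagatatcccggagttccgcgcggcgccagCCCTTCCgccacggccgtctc
MRPS33, chr7:141014933-141014992, minus strand: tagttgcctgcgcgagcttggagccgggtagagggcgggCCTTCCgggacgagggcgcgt
MRPL9, chr1:151763477-151763536, minus strand: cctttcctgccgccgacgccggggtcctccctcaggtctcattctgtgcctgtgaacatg
MRPS34, chr16:1773115-1773174, minus strand: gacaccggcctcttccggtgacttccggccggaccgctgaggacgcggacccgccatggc
The annotated starts of RPS28 and RPS26 are an A and a G that lie just before their pyrimidine runs, so both were counted without the motif although a run follows. Lower and higher cytosolic genes both carried runs, and MRPL9 and MRPS34 carried none at the start. The 28 cytosolic genes with the motif had median changes of 0.00, 0.09, 0.05 and -0.08 in the order C#1, C#2, C#3, C#6. The 15 without it had medians of -0.09, -0.04, -0.16 and -0.28. A C followed by at least 4 C or T, anywhere from 10 bases before to 15 after the start, was found in 38 of the 43 (88.4%). It was found in 33.3% of all promoters. RPL10, RPL32, RPS15 and RPS7 were, like RPS28 and RPS26, among the 15 but had such a run nearby. The split thus depends on the exact annotated start, and the difference in medians was not tested.

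Ribosomal protein genes changed by small amounts and in both directions. More of them were called in C#6 than in the other clones, as was so for all genes. In C#1, 9 of the 121 genes rose and 18 fell (22.3% called), where 17.2% of all genes were called, 6.03% higher and 11.2% lower. In C#2, 11 rose and 10 fell (17.4%), against 16.9% of all genes, 5.47% higher and 11.5% lower. In C#3, 6 rose and 17 fell (19%), against 17.2% of all genes, 6.22% higher and 11% lower. In C#6, 15 rose and 18 fell (27.3%), against 22.4% of all genes, 7.73% higher and 14.7% lower. These shares lie near the background in C#2 and C#3 and above it in C#1 and C#6, and no test was made of that difference. Of the 121 genes, 60 (49.6%) were called in at least 1 clone, against 37.5% of all genes, with 27 higher (against 14.9%) and 33 lower (23.8%). The 3 arrays of a clone lay wholly above the 3 parental arrays for 25 of the 121 genes in C#1, 29 in C#2, 28 in C#3 and 24 in C#6, against 14.8%, 14.4%, 16.7% and 16.6% of all genes. They lay wholly below for 31, 25, 33 and 34 genes, against 21.8%, 22.1%, 22.3% and 24.1%. With 1 probe set per gene, the brightest, no ribosomal protein gene changed by 2-fold in any clone, whereas 430 of all genes did (3.54%), and the largest change was a 1.93-fold fall of RPS26 in C#2. A second, dimmer probe set of RPL19 rose by 1.10 in C#1, which is over 2-fold.

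The split between higher and lower calls moved with the scaling of the arrays. In C#1, renewed quantile normalization gave 13 higher and 10 lower in place of 9 and 18. In C#2 it gave 19 and 8, and centring each array on its median gave 7 and 12. In C#3 quantile normalization gave 12 and 12, and in C#6 it gave 19 and 11. Over all genes the same step took the share of lower calls in C#6 from 65.5% to 49.7%. Of the 104 calls of these genes in the 4 clones, 35 held in each of the 15 fits that left out 1 array and under each of 9 other settings, 67 were lost without at least 1 array, and none changed direction.

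**Figure D1:**
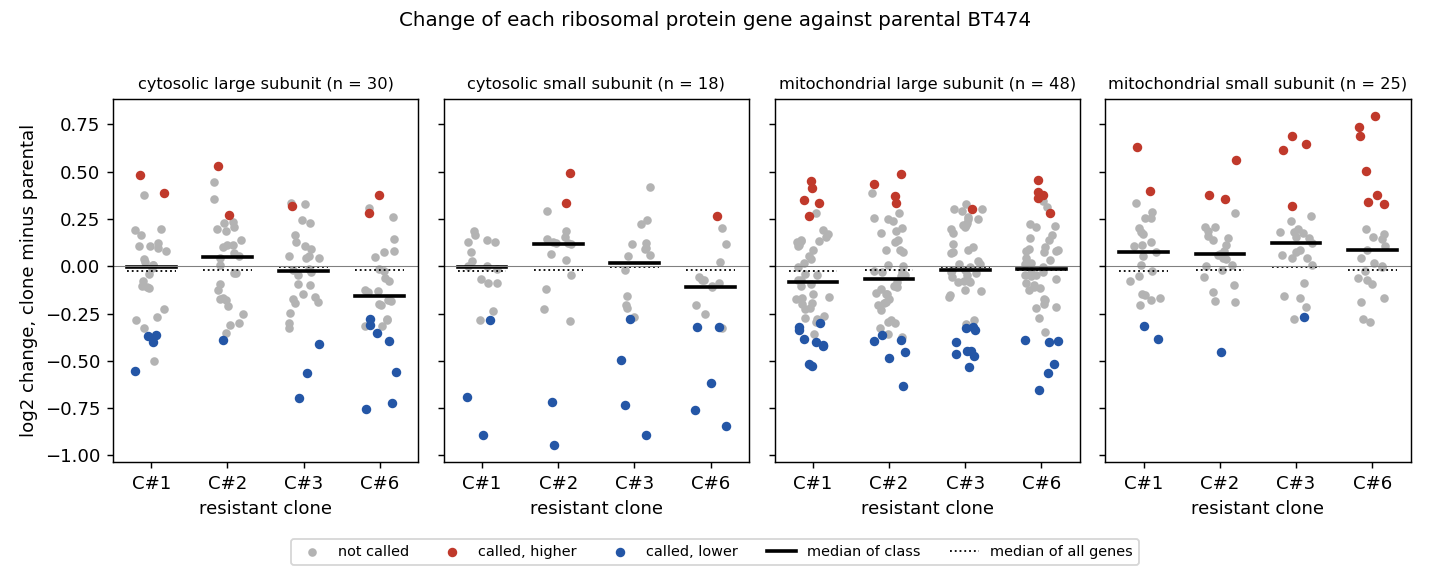
Log2 change against parental BT474 of each ribosomal protein gene (points) in each clone, in 4 panels by subunit; red and blue points were called higher and lower (limma, adjusted p below 0.05), solid lines are class medians and dotted lines the median of all genes. The cytosolic medians lie lowest in C#6, and the mitochondrial small-subunit panel has 7 red and 0 blue points in C#6.

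Among the cytosolic small-subunit genes, RPS28 and RPS26 were lower in each of the 4 clones. With MRPL9, they were the 3 of 121 genes called lower in all 4 comparisons, as 3.65% of all genes were. Across all genes 1.04% were called higher in all 4, and no ribosomal protein gene was. RPS28 encodes eS28, a small protein of the platform of the small subunit, close to where messenger RNA leaves the ribosome. RPS28 measured 11.93, 11.80 and 11.90 in the parental arrays. In the clones it measured 11.04, 11.03 and 10.88 in C#1, 11.19, 11.13 and 11.16 in C#2, 11.13, 11.20 and 11.09 in C#3, and 11.10, 11.10 and 11.15 in C#6. No clone array came near the parental range, and the 4 clones lay close together. The change of RPS28 was -0.89 in C#1, -0.72 in C#2, -0.73 in C#3 and -0.76 in C#6, each with SE 0.09, which is between 1.64-fold and 1.85-fold lower. Its adjusted p in the limma test was 7.05e-06, 4.35e-05, 3.49e-05 and 1.5e-05. All 4 calls held without any 1 array and under every other setting, and the 4 clones did not differ in RPS28 by the F test (adjusted p = 0.387).

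RPS26 encodes eS26, which lines the exit channel of messenger RNA. It measured 6.83, 6.70 and 6.92 in the parental arrays. The clone arrays were lower and more scattered, at 5.70, 6.43 and 6.25 in C#1, 5.66, 5.76 and 6.19 in C#2, 5.60, 5.804 and 6.37 in C#3, and 5.56, 6.10 and 6.26 in C#6. Replicate 1 was the lowest array of its group in all 4 clones, and the highest clone array stayed below the lowest parental one. RPS26 changed by -0.69, -0.95, -0.89 and -0.84 (SE 0.22), with adjusted p of 0.0422, 0.00747, 0.0113 and 0.0116 in limma. The C#2 call held in every setting. The C#1 call was lost under quantile normalization and without any of parental replicates 1, 2 and 3 or C#1 replicates 1 and 3 (adjusted p up to 0.19), the C#3 call without C#3 replicate 1 (0.0584) and the C#6 call without C#6 replicate 1 (0.0623).

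RPS15, which encodes uS19 in the head of the small subunit, was lower by smaller steps. It lay between 11.19 and 11.26 in the parental arrays and between 10.87 and 11.08 in the 12 clone arrays. RPS15 fell by 0.28 in C#1, 0.28 in C#3 and 0.32 in C#6 (SE 0.09), and its change in C#2 was -0.23 with adjusted p = 0.0921 in limma. Its clone and parental arrays did not overlap, but the C#6 call was lost without parental replicate 1 (adjusted p = 0.0571) and the C#1 and C#3 calls without several single arrays (up to 0.123).

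RPS7, which encodes eS7 and is known to bind the p53 regulator MDM2, was lower in C#6. Its parental arrays read 5.40, 5.54 and 5.42 and its C#6 arrays 5.05, 4.95 and 4.52. The other 9 clone arrays lay between 5.25 and 5.53. RPS7 fell by 0.61 in C#6 (SE 0.12, adjusted p = 0.00197 in limma) and was lower there than in C#1, C#2 and C#3 (adjusted p = 0.00981, 0.0064 and 0.0279).

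RPS27 and RPS15A were the small-subunit genes called higher. RPS27 encodes eS27, and its arrays read 11.98, 11.80 and 11.89 in parental cells and 12.24, 12.25 and 12.19 in C#2. It rose by 0.33 in C#2 and 0.26 in C#6 (adjusted p = 0.0165 and 0.0432), and both calls were lost without single arrays (adjusted p up to 0.081 and 0.168). RPS15A encodes uS8 and rose by 0.49 in C#2 (SE 0.12, adjusted p = 0.00782 in limma), a call that missed the threshold without parental replicate 2 (0.0509). RPS27L, a relative of RPS27 that p53 is known to induce, was dim at 4.24 in parental cells and fell by 0.50 in C#3 (adjusted p = 0.0383, up to 0.19 without 1 array). RPS6, the small-subunit protein that S6 kinases phosphorylate, was not called, with changes of 0.18, 0.14, 0.05 and -0.07.

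**Figure D2:**
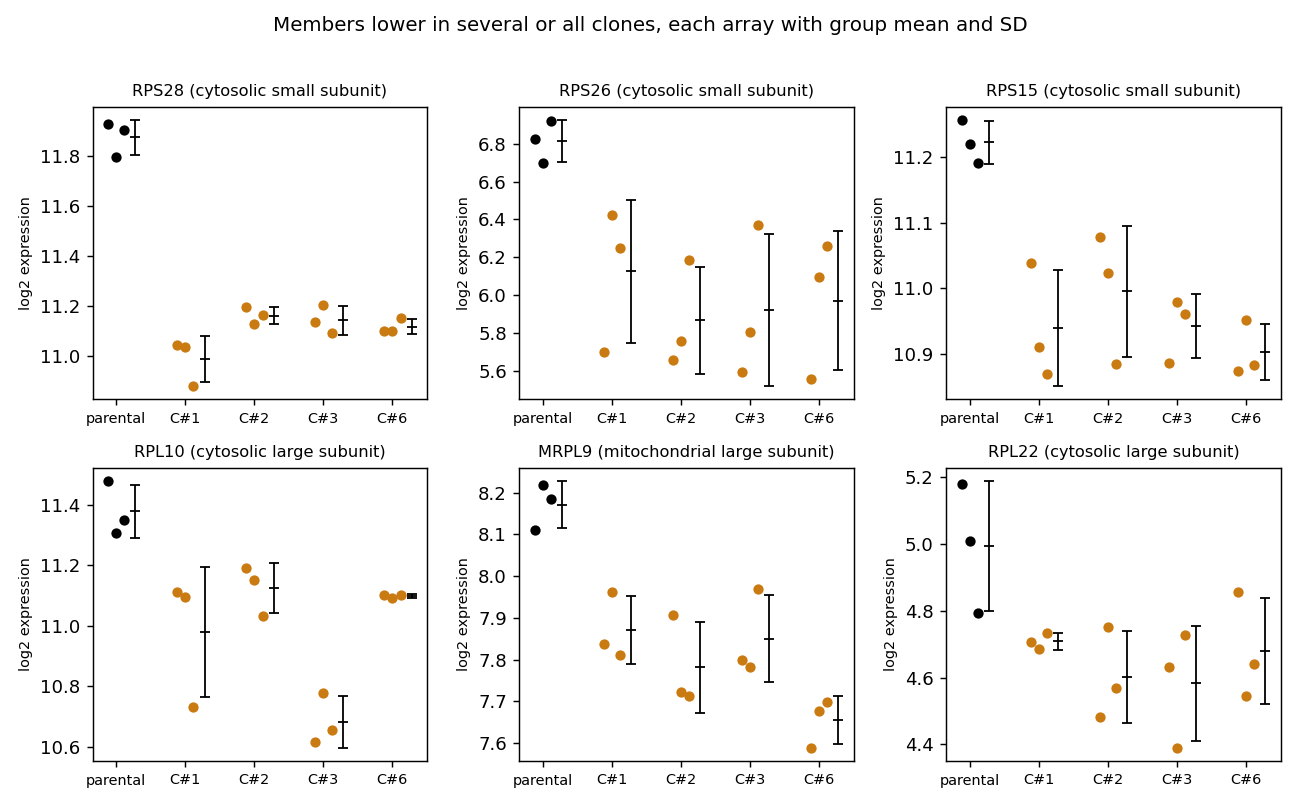
Log2 expression in each array (points), with group mean and SD as bars (n = 3 arrays per group), for RPS28, RPS26, RPS15, RPL10, MRPL9 and RPL22; each panel has its own axis, which does not start at 0. RPS28, RPS26, RPS15, RPL10 and MRPL9 are below the parental range in every clone array, and the C#6 arrays of RPL22 overlap the parental ones.

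In the cytosolic large subunit, 7 of 30 genes were lower and 2 higher in C#6, where 14.7% of all genes were lower and 7.73% higher, and no gene was called in all 4 clones. RPL10 encodes uL16, which joins the large subunit late in its assembly and sits near the tRNA sites. Its parental arrays read 11.48, 11.31 and 11.35. The C#3 arrays were the lowest, at 10.62, 10.78 and 10.65, and C#6 was tight at 11.10, 11.09 and 11.10. C#1 had 1 array apart from its other 2, at 11.11, 11.10 and 10.73. RPL10 fell by 0.70 in C#3 and by 0.40 in C#1 (SE 0.11, adjusted p = 0.000393 and 0.0172 in limma). The C#1 call was lost without C#1 replicate 3 or parental replicate 1 (up to 0.0857). The changes in C#2 and C#6 were -0.25 and -0.28 (adjusted p = 0.121 and 0.0739). RPL10 was lower in C#3 than in C#2 and C#6 (adjusted p = 0.00946 and 0.0216).

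RPL32 and RPL30 had the largest decreases of the large-subunit genes in C#6. RPL32 encodes eL32, and its arrays read 5.44, 5.94 and 6.02 in parental cells and 5.31, 4.87 and 4.94 in C#6. RPL32 fell by 0.76 in C#6 and 0.55 in C#1 (SE 0.16, adjusted p = 0.00266 and 0.024 in limma). The C#1 call was lost without C#1 replicate 2 or without parental replicate 2 or 3 (up to 0.122). RPL30, which encodes eL30, read 6.74, 6.42 and 6.67 in parental cells, 5.97, 6.13 and 6.05 in C#3, and 5.57, 5.97 and 6.12 in C#6. It fell by 0.56 in C#3 and 0.72 in C#6 (SE 0.14, adjusted p = 0.0104 and 0.00124), and the C#3 call just missed the threshold without parental replicate 1 (0.0503). RPL29 read 6.77, 6.66 and 6.61 in parental cells and 6.00, 6.21 and 6.16 in C#6, where it fell by 0.56 (adjusted p = 0.00536). RPL35A, one of the genes mutated in Diamond-Blackfan anaemia, fell by 0.37 in C#1 and 0.40 in C#6 (adjusted p = 0.0246 and 0.0131). Both RPL35A calls were lost under quantile normalization and without single arrays (up to 0.106 and 0.0698).

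RPL22 and its copy RPL22L1, which stands outside the choice by symbol, were both lower. RPL22 encodes eL22, an RNA-binding large-subunit protein that is lost in some cancers. It read 5.18, 5.01 and 4.79 in parental cells and between 4.39 and 4.75 in C#2 and C#3, where it fell by 0.39 and 0.41 (SE 0.12, adjusted p = 0.0378 and 0.0303 in limma). The C#6 arrays overlapped the parental ones. RPL22L1 fell by 0.41 in C#1, 0.43 in C#3 and 0.40 in C#6, and its change in C#2 was -0.37. Each call of this pair was lost without some single arrays (adjusted p up to 0.168 for RPL22 and 0.14 for RPL22L1).

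By the brightest probe set of each gene, RPL36 had the largest increase in the large subunit. It encodes eL36 and read 8.15, 7.96 and 8.22 in parental cells and 8.66, 8.61 and 8.64 in C#2. RPL36 rose by 0.53 in C#2 (SE 0.13, adjusted p = 0.00906 in limma; 0.051 without parental replicate 2) and by 0.38 in C#6 (0.0443), where the arrays overlapped the parental ones. The C#6 call was lost in 11 of the 15 fits without 1 array (up to 0.176) and with arrays centred. RPL39 and RPL17 rose in C#1, by 0.48 and 0.39 (adjusted p = 0.0355 and 0.0349, and up to 0.16 and 0.14 without 1 array). RPL19 rose by 0.27 in C#2, RPL35 by 0.32 in C#3 and RPL26 by 0.28 in C#6, each lost without single arrays (up to 0.172, 0.0949 and 0.121). Probe sets of 1 gene could disagree. A dimmer RPL39 probe set changed by -0.32, -0.16, -0.74 and -0.58 against 0.48, 0.44, 0.04 and 0.31 for the brighter one, and a dimmer RPL19 probe set by 1.10, 0.97, 0.68 and 0.78. RPL11, whose protein binds MDM2, and the tissue-restricted copies RPL3L and RPL39L were not called in any clone. Ribosomal protein genes have many near-identical processed copies in the genome, and signal from these copies cannot be told apart from that of the gene in these values.

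Taken over all 48 cytosolic genes, C#6 stood apart from the parental cells. In C#6, 15 of the 48 were called (31.2%), 12 lower and 3 higher, against 22.4% of all genes, 14.7% lower and 7.73% higher. Of the 48 changes, 36 were below 0 (75%), against 52.8% of all genes. The median change was -0.13 in C#6 and -0.00, 0.07 and -0.02 in C#1, C#2 and C#3, while that of all genes was -0.02 in C#6. After quantile normalization the cytosolic medians were 0.04, 0.15, 0.05 and -0.03, beside 0.01, 0.02, 0.03 and 0.03 for all genes, so that the sign turned in C#1 and C#3, and the C#6 median was smaller. Averaged over the 48 genes, the parental arrays read 7.86, 7.74 and 7.78 and the C#6 arrays 7.65, 7.61 and 7.63. The C#6 arrays all lay below the parental ones, by 0.164 on average, and by 0.0796 after quantile normalization and 0.178 after centring, again without overlap. With single arrays left out, the difference stayed between -0.189 and -0.13. C#1 and C#2 overlapped the parental arrays in this mean, and C#3 lay below them as deposited but not after either rescaling. The split of cytosolic calls in C#6 was 3 higher and 7 lower after quantile normalization and 1 and 11 after centring.

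**Figure D3:**
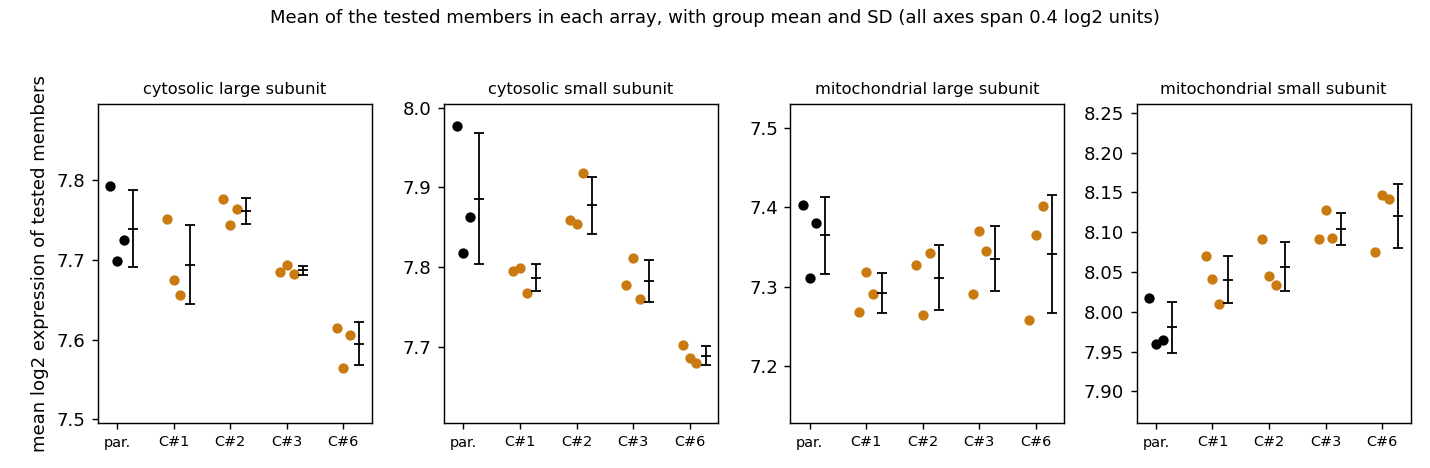
Mean log2 expression of the genes tested in each array (points), with group mean and SD as bars (n = 3 arrays), for the 4 subunit classes; every axis spans 0.4 log2 units and none starts at 0. C#6 arrays lie below the parental arrays for both cytosolic subunits, and C#2, C#3 and C#6 arrays above them for the mitochondrial small subunit.

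Mitochondrial large-subunit genes were called in both directions, with 9 lower and 5 higher of 48 in C#1, 6 and 4 in C#2, 9 and 1 in C#3, and 6 and 5 in C#6. The shares of all genes were 11.2% lower and 6.03% higher in C#1, 11.5% and 5.47% in C#2, 11% and 6.22% in C#3, and 14.7% and 7.73% in C#6. MRPL9, which encodes bL9m, a protein of bacterial origin, was the gene lower in each clone. It read 8.11, 8.22 and 8.18 in parental cells. The clone arrays read 7.84, 7.96 and 7.81 in C#1, 7.91, 7.72 and 7.71 in C#2, 7.80, 7.78 and 7.97 in C#3, and 7.59, 7.68 and 7.70 in C#6. All 12 lay below the parental arrays and C#6 was lowest. MRPL9 changed by -0.30, -0.39, -0.32 and -0.52 (SE 0.09), with adjusted p of 0.0375, 0.00909, 0.0275 and 0.0009 in limma. The C#2 and C#6 calls held in every setting. The C#1 and C#3 calls were lost under quantile normalization and without 5 and 4 of the single arrays, the parental replicates 2 and 3 among them in both (adjusted p up to 0.122 and 0.0969).

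MRPL2 and MRPL4 encode uL2m and uL4m, which are core proteins near the catalytic centre and along the exit tunnel. MRPL2 read 9.01, 8.93 and 9.16 in parental cells and 8.47, 8.26 and 8.40 in C#6. It fell by 0.45 in C#2, 0.45 in C#3 and 0.66 in C#6 (SE 0.12, adjusted p = 0.0173, 0.0182 and 0.00101 in limma), and in C#1, whose arrays overlapped the parental ones, it changed by -0.36. The C#6 call held in every setting, and the other calls of MRPL2 were lost without 3 single arrays each (up to 0.0887). MRPL4 read 7.58, 7.59 and 7.69 in parental cells and 7.16, 6.69 and 7.11 in C#2. It fell by 0.53, 0.63 and 0.46 in C#1, C#2 and C#3 (SE 0.13, adjusted p = 0.0122, 0.0037 and 0.0253), and its change in C#6 was -0.28. The MRPL4 call held in C#2 in every setting, was lost in C#1 without parental replicate 3 (0.0543) and in C#3 without 5 single arrays (up to 0.0921). MRPL13 and MRPL20 fell in C#1, C#3 and C#6, by 0.34, 0.47 and 0.40 and by 0.32, 0.33 and 0.40. The MRPL13 calls in C#3 and C#6 held in every setting, that in C#1 was lost without single arrays (up to 0.0829), and those of MRPL20 in C#1 and C#3 likewise (up to 0.147 and 0.104). The MRPL20 call in C#6 was lost under quantile normalization. MRPL48 fell by 0.52 in C#1 and 0.45 in C#3 (adjusted p = 0.00821 and 0.0194), and the first held in every setting.

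Other large-subunit genes of the mitochondrial ribosome set the clones apart. MRPL18, which encodes uL18m, read 7.33, 7.37 and 7.41 in parental cells and 6.80, 6.69 and 7.02 in C#3, while the other 9 clone arrays lay between 7.29 and 7.61. It fell by 0.53 in C#3 (SE 0.11, adjusted p = 0.00276 in limma). MRPL50, which has no bacterial counterpart, read 7.66, 7.53 and 7.68 in parental cells and 6.98, 7.08 and 7.11 in C#6. It fell by 0.57 in C#6 (SE 0.10, adjusted p = 0.000808), and the changes in the other clones lay between -0.19 and -0.07.

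MRPL17 and MRPL49 were called in C#1 and C#2, in opposite directions. MRPL17, which encodes bL17m, read 7.20, 6.93 and 7.06 in parental cells, 7.49, 7.48 and 7.57 in C#1, and 7.44, 7.44 and 7.61 in C#2. It rose by 0.45 and 0.43 (SE 0.10, adjusted p = 0.00517 and 0.0068 in limma) and was higher in each of these clones than in C#3 and C#6 (adjusted p between 0.00327 and 0.0298). MRPL49 read 9.73, 9.77 and 9.76 in parental cells, 9.34, 9.42 and 9.31 in C#1, and 9.36, 9.22 and 9.23 in C#2. It fell by 0.40 and 0.48 (SE 0.09, adjusted p = 0.00625 and 0.00167) and was lower than in C#3 in both clones (0.0221 and 0.00538). MRPL34, which encodes bL34m, rose by 0.37 in C#2, 0.31 in C#3 and 0.46 in C#6 (adjusted p = 0.00975, 0.0286 and 0.00171). Its C#3 call was lost without 5 single arrays (up to 0.128).

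Several further genes of the mitochondrial ribosome had calls that were lost without single arrays. MRPL24 rose by 0.49 in C#2 (adjusted p = 0.0117 in limma), a call lost without parental replicate 2 or C#2 replicate 1 (up to 0.0656). MRPL14 and MRPL35 rose by 0.41 and 0.35 in C#1, and MRPL54 rose by 0.36 in C#6. MRPL33 fell by 0.42 in C#1 and 0.39 in C#6, MRPL52 by 0.42 in C#1 and MRPL11 by 0.40 in C#2. In the small subunit, MRPS9 rose by 0.32 in C#3. Each of these calls was lost without at least 2 of the single arrays, with adjusted p up to 0.177. Within the large subunit, the 27 genes with a bacterial counterpart had 3 higher and 5 lower calls in C#1, 4 and 4 in C#2, 1 and 7 in C#3, and 2 and 5 in C#6. The 21 without one had 2 and 4, 0 and 2, 0 and 2, and 3 and 1. For all genes the shares were 6.03%, 5.47%, 6.22% and 7.73% higher and 11.2%, 11.5%, 11% and 14.7% lower.

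Genes named for the mitochondrial small subunit were called higher more often than lower in C#2, C#3 and C#6. The 25 genes were assigned by their MRPS symbol alone, MRPS30 and MRPS18A included. They had 2 higher and 2 lower calls in C#1, 3 and 1 in C#2, 4 and 1 in C#3, and 7 and 0 in C#6. Among all genes higher calls made up 6.03%, 5.47%, 6.22% and 7.73%, and lower calls 11.2%, 11.5%, 11% and 14.7%. Median changes were 0.08, 0.06, 0.12 and 0.09, beside -0.02, -0.02, -0.00 and -0.02 for all genes. MRPS33, which encodes a small-subunit protein with no bacterial counterpart, had the largest increase of the 121 genes by the brightest probe set of each. It read 5.35, 5.42 and 5.45 in parental cells, 5.97, 6.14 and 5.97 in C#3, and 6.18, 6.13 and 6.30 in C#6. C#1, at 5.65, 5.60 and 5.74, and C#2, at 5.55, 5.75 and 5.55, lay between, and no clone array overlapped the parental range. MRPS33 rose by 0.62 in C#3 and 0.79 in C#6 (SE 0.10, 1.53-fold and 1.73-fold, adjusted p = 0.000401 and 2.21e-05 in limma). Its changes in C#1 and C#2 were 0.25 and 0.21 (adjusted p = 0.0812 and 0.15). The differences of C#1 and C#2 from C#3 and C#6 were called as well (adjusted p between 0.000767 and 0.015).

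MRPS34 encodes another mitochondria-specific small-subunit protein and was also highest in C#6 and C#3. Its arrays read 8.42, 8.13 and 8.29 in parental cells, 8.89, 8.89 and 8.997 in C#3, and 8.81, 9.03 and 9.07 in C#6. The C#1 arrays, at 8.51, 8.61 and 8.27, overlapped the parental ones. MRPS34 rose by 0.65 in C#3 and 0.69 in C#6 (SE 0.12, adjusted p = 0.00118 and 0.000431 in limma) and by 0.38 in C#2 (0.0333). The C#2 call was lost with arrays centred and without parental replicate 2 or 3 or C#2 replicate 1 or 3 (up to 0.145).

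MRPS30 was named for the small subunit, but its protein (mL65) sits in the large subunit in solved structures of the mammalian ribosome. It read 8.80, 8.77 and 8.76 in parental cells, 9.42, 9.55 and 9.43 in C#3, and 9.28, 9.26 and 9.29 in C#6. It was highest in C#3, and the arrays of every clone lay above the parental ones. MRPS30 rose by 0.40 in C#1, 0.69 in C#3 and 0.50 in C#6 (SE 0.09, adjusted p = 0.00623, 9.82e-05 and 0.0008 in limma), and its change in C#2 was 0.21 (0.13).

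MRPS10, which encodes uS10m, a protein of bacterial origin, rose in a different set of clones. It read 8.98, 8.92 and 9.02 in parental cells, 9.68, 9.48 and 9.65 in C#1, 9.66, 9.56 and 9.40 in C#2, and 9.93, 9.65 and 9.56 in C#6. The C#3 arrays, at 9.42, 9.22 and 8.999, overlapped the parental ones. MRPS10 rose by 0.63, 0.56 and 0.74 in C#1, C#2 and C#6 (SE 0.12, adjusted p = 0.0022, 0.00482 and 0.000443 in limma), and its change in C#3 was 0.24. All calls of MRPS10, MRPS30 and MRPS33 held without any 1 array and in every other setting. MRPS17, which encodes uS17m, went the other way and fell by 0.38 in C#1 and 0.45 in C#2, with both calls lost without single arrays (adjusted p up to 0.0783 and 0.0543).

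Grouped by origin, the 10 genes named for the small subunit without a bacterial counterpart had 1 higher and 1 lower call in C#1, 2 and 0 in C#2, 3 and 1 in C#3, and 6 and 0 in C#6. Their median changes were 0.14, 0.17, 0.19 and 0.33, and the shares of all genes called in C#6 were 7.73% higher and 14.7% lower. The 6 genes higher in C#6 were MRPS22, MRPS23, MRPS26, MRPS30, MRPS33 and MRPS34. The 13 with a bacterial counterpart had 1 higher and 0 lower calls in C#6 and a median of 0.02, and in C#1, C#2 and C#3 medians of 0.00, 0.04 and 0.08. MRPS18A and MRPS18B, the 2 S18-like genes, were counted in neither group and were not called in any clone. This grouping was made after the values had been seen, and the calls of MRPS22, MRPS23 and MRPS26 in C#6 (0.34, 0.38 and 0.33) were lost without some single arrays (adjusted p up to 0.0852, 0.143 and 0.178). Averaged over the 25 genes, the parental arrays read 8.02, 7.96 and 7.96, the C#3 arrays 8.09, 8.13 and 8.09, and the C#6 arrays 8.07, 8.15 and 8.14. The mean was 0.123 higher in C#3 and 0.14 higher in C#6, without overlap. After centring, C#3 stayed above the parental arrays and C#6 overlapped them, and after quantile normalization all 4 clones lay above.

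**Figure D4:**
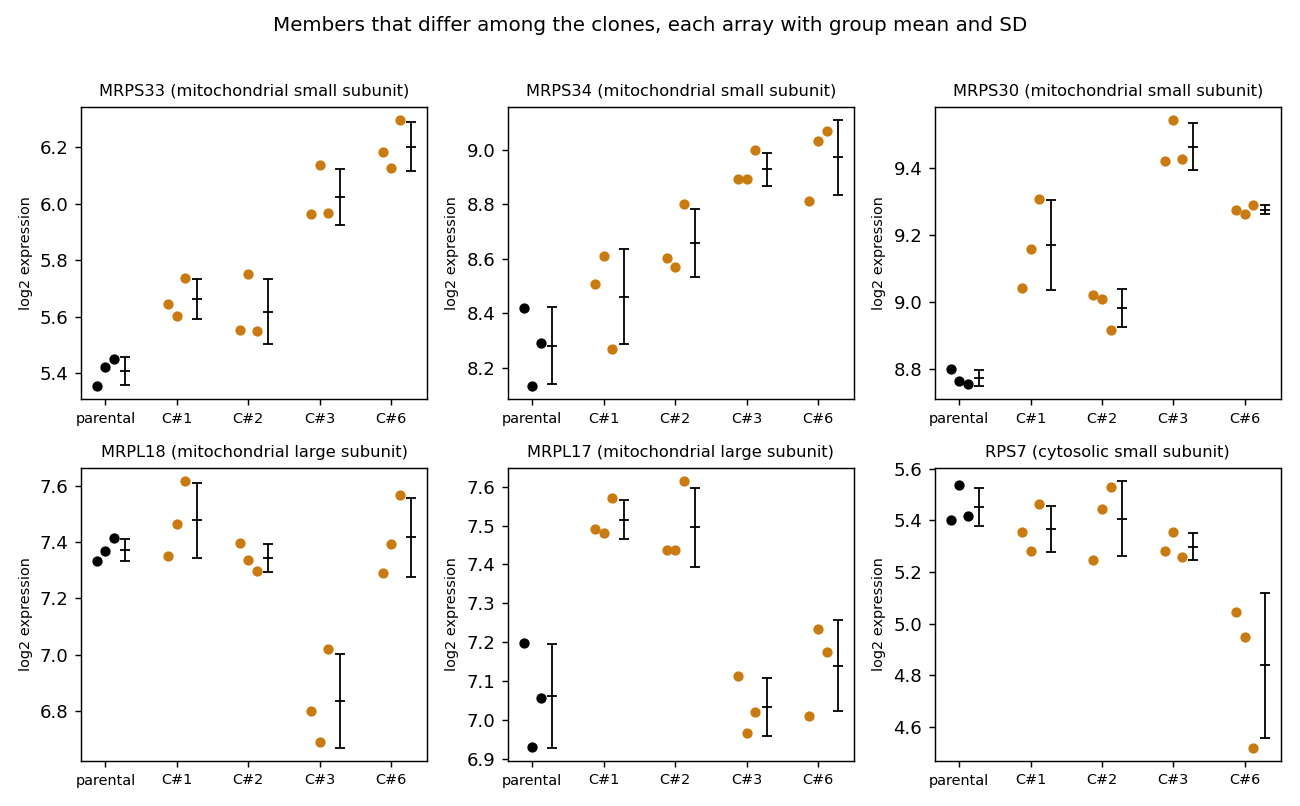
Log2 expression in each array (points), with group mean and SD as bars (n = 3 arrays per group), for MRPS33, MRPS34, MRPS30, MRPL18, MRPL17 and RPS7; each panel has its own axis, which does not start at 0. MRPS33 and MRPS34 are highest in C#3 and C#6, MRPS30 is highest in C#3, MRPL18 is low in C#3, MRPL17 is high in C#1 and C#2, and RPS7 is low in C#6.

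Differences among the 4 clones were found for 21 of the 121 genes by the limma F test (17.4%), against 22.5% of all genes. They were 5 of 48 cytosolic (10.4%) and 16 of 73 mitochondrial genes (21.9%). No ribosomal protein gene differed between C#1 and C#2 in limma, as for 0 of all 12147 genes. An unadjusted limma p below 0.05 was found for 10 of the 121 and for 807 of all 12147 genes. Between C#1 and C#3, 14 were called (11.6%), against 16.8% of all genes. Between C#2 and C#3, 11 were called (9.09%), against 15.8%. C#6 differed from C#1 in 12 genes (9.92%, against 12.7%), from C#2 in 15 (12.4%, against 11.2%) and from C#3 in 7 (5.79%, against 9.01%). The 5 cytosolic genes called between C#2 and C#6 were all higher in C#2, as 5.69% of all genes were. They were RPL11, RPL27, RPL8, RPS19 and RPS7, higher in C#2 by 0.33, 0.47, 0.32, 0.36 and 0.57.

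**Figure D5:**
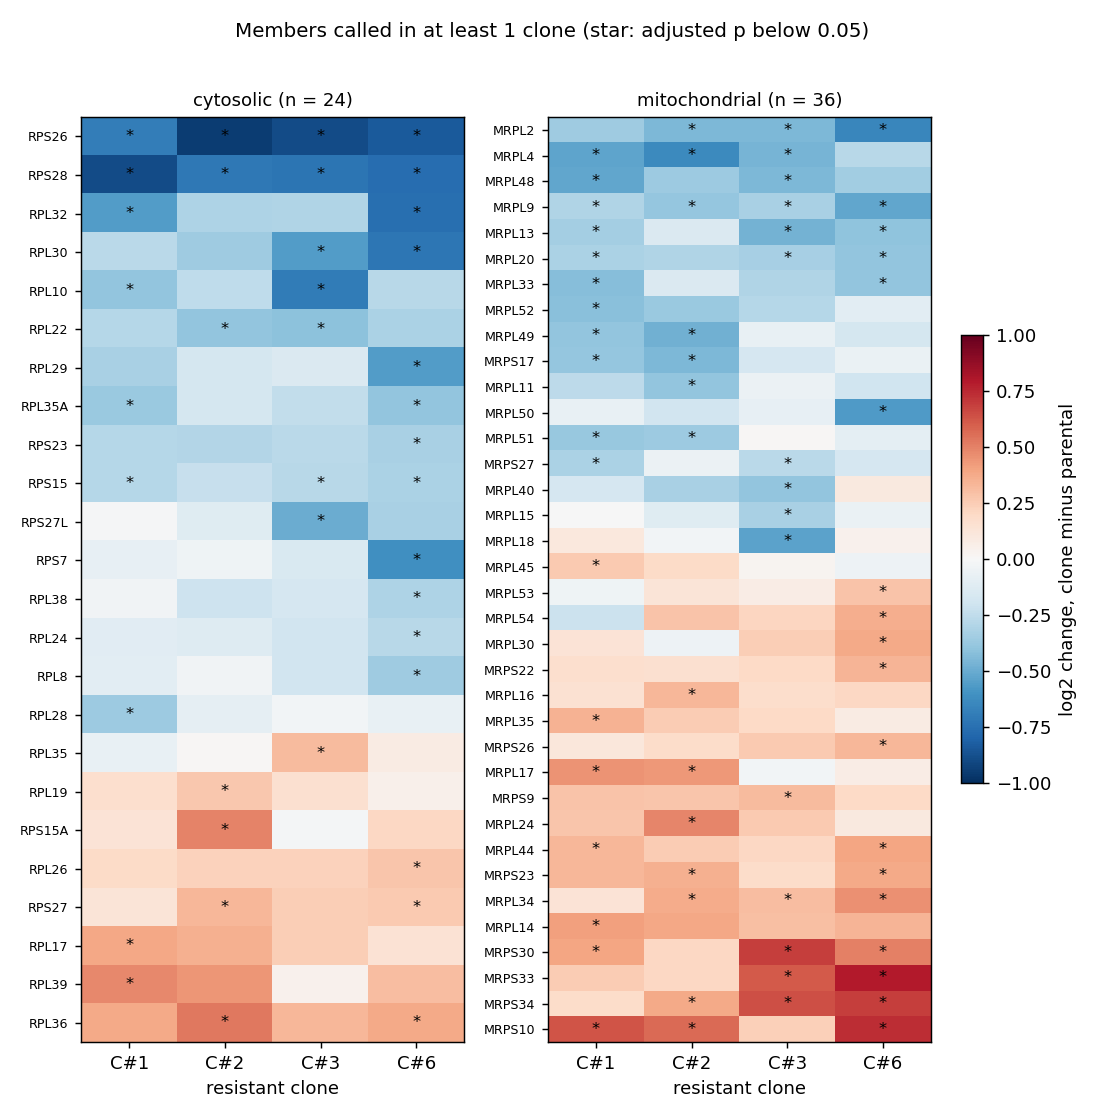
Log2 change against parental BT474 (colour, from -1 to 1) in the 4 clones (columns) for the 24 cytosolic and 36 mitochondrial genes called in at least 1 clone (rows, sorted by mean change); stars mark calls. RPS26 and RPS28 are starred and blue in all 4 clones at the top of the cytosolic panel, and MRPS10, MRPS34, MRPS33 and MRPS30 are the deepest red rows of the mitochondrial panel.

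Genes that build cytosolic ribosomes were called in both directions. Of 63 ribosome biogenesis genes tested, 2 rose and 14 fell in C#1, 4 and 10 in C#2, 5 and 13 in C#3, and 3 and 14 in C#6, with median changes of -0.13, -0.03, -0.14 and -0.08. Lower calls outnumbered higher ones among all genes too (6.03% higher and 11.2% lower in C#1, 7.73% and 14.7% in C#6), and the excess on this list was not tested. NOP10, a subunit of the box H/ACA particle that makes pseudouridine in ribosomal RNA, fell by 0.45, 0.33, 0.85 and 0.47. Its C#1 call was lost without parental replicate 1 (adjusted p = 0.0504), and its C#2 call in 8 fits without 1 array (up to 0.17). LTV1, an assembly factor of the small subunit, fell by 0.86 in C#3 (adjusted p = 8e-05 in limma), and NVL, an ATPase of large-subunit maturation, by 0.87 in C#2 (0.0025). NVL also fell by 0.53 in C#1 and 0.64 in C#3, both lost without single arrays (up to 0.175 and 0.0883). POLR1F, an RNA polymerase I subunit, was called among the 5 genes tested on the polymerase I list. It fell by 0.53 in C#6, and its falls of 0.36 in C#1 and 0.38 in C#2 were lost without single arrays (up to 0.154 and 0.124).

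MYC, which promotes transcription of ribosomal protein genes, fell in C#1, C#3 and C#6, with changes of -1.30, -1.74 and -1.49 (SE 0.31, adjusted p = 0.0074, 0.0011 and 0.0021 in limma), and its change in C#2 was -0.86. MXI1, which antagonises MYC, rose by 0.93 in C#1, 0.70 in C#2 and 0.86 in C#6. DEPTOR, an inhibitor within mTOR complexes, rose by 0.98 in C#1 and 1.06 in C#2. Of the 15 genes on the mTORC1, S6 kinase and MYC list, 2 rose and 4 fell in C#1, 2 and 3 in C#2, 0 and 3 in C#3, and 2 and 4 in C#6. Among 22 translation factors, 2 rose and 3 fell in C#1, 3 and 2 in C#2, 3 and 1 in C#3, and 3 and 3 in C#6. The shares called were 40%, 33.3%, 20% and 40% on the first list and 22.7%, 22.7%, 18.2% and 27.3% among the factors. Those of all genes were 17.2%, 16.9%, 17.2% and 22.4%, and the differences were not tested. EIF4EBP1, the repressor of cap-dependent initiation that mTORC1 inactivates, rose by 0.76 in C#1 and 0.87 in C#2, and EIF5A2, a form of the elongation factor eIF5A, fell by between 0.78 and 0.93 in each clone. EEF1D, an elongation factor subunit, fell by 0.55 in C#1 and 0.75 in C#6, the first of which was lost without 4 single arrays (adjusted p up to 0.0901).

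Other genes with TOP messenger RNAs had 1 higher and 3 lower calls of 12 in C#1, 2 and 2 in C#2, 2 and 3 in C#3, and 1 and 4 in C#6. HNRNPA1, an RNA-binding splicing factor, fell by 0.74, 0.68, 1.04 and 1.29, with the C#1 and C#2 calls lost without single arrays (adjusted p up to 0.129 and 0.172). VIM, the gene of the filament protein vimentin, fell by 1.10, 1.03, 0.53 and 1.24, and its C#3 call was lost without parental replicate 1 or 2 (up to 0.0735). Of 9 ribosomal stress and p53 genes, none was called in C#1 by limma. There 3 of the 9 had an unadjusted limma p below 0.05, as had 3551 of all 12147 genes. Among the 9, 0 were called higher and 2 lower in C#2, 1 and 3 in C#3, and 0 and 3 in C#6. For all genes the shares were 6.03%, 5.47%, 6.22% and 7.73% higher and 11.2%, 11.5%, 11% and 14.7% lower. Neither of these short lists was tested against them. MDM4, a p53 inhibitor, fell by 0.68 in C#3 and 0.82 in C#6. TP53INP1, a p53 target, fell by 0.70, 0.64 and 0.92 in C#2, C#3 and C#6. SESN2, another p53 target, fell by 0.84 in C#6. The calls in C#6 of MDM4 and TP53INP1 held without any 1 array, that of SESN2 was lost without C#6 replicate 2 (adjusted p = 0.0621), and those in C#2 and C#3 were lost without some single arrays (up to 0.16).

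On the mitochondrial side, 34 genes of mitochondrial translation and ribosome assembly had 0 higher and 3 lower calls in C#1, 2 and 2 in C#2, 5 and 3 in C#3, and 4 and 3 in C#6. MRM3, which methylates mitochondrial large-subunit RNA, rose by 0.59 in C#3 and 0.40 in C#6 (the second lost without 4 single arrays, adjusted p up to 0.139), and TRUB2, a pseudouridine synthase, by 0.50 in C#3. MTRF1L, a release factor, fell by 0.54 in C#3. Of 17 nuclear-encoded subunits of the respiratory chain tested, 2 rose and 2 fell in C#1, 2 and 1 in C#2, 3 and 4 in C#3, and 2 and 5 in C#6. The shares called were 8.82%, 11.8%, 23.5% and 20.6% on the translation list and 23.5%, 17.6%, 41.2% and 41.2% on the respiratory list. Those of all genes were 17.2%, 16.9%, 17.2% and 22.4%, and the differences were not tested. COX4I1, a core nuclear subunit of cytochrome c oxidase, rose by 0.56, 0.56, 0.86 and 0.87 (SE 0.10, adjusted p between 1.6e-05 and 0.0011 in limma). UQCRB, a subunit of complex III, fell by 0.44, 0.52, 0.69 and 0.85, and its C#1 call was lost without 3 single arrays (up to 0.0939). COX7B, a small oxidase subunit, fell by 0.83 in C#3 (adjusted p = 5.8e-05) and by 0.31 in C#6, which was lost without 5 single arrays (up to 0.175).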

How the data were processed

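The authors deposited log2 expression values per probe set from 15 Affymetrix arrays, made with RMA in Affymetrix Expression Console 1.4.1 and compared in Transcriptome Analysis Console, per the submitters' processing notes. RMA equalises the arrays' distributions and shrinks large differences. Of 53617 probe sets, 16098 (30%) had 1 gene symbol in the platform annotation and the rest none. A probe set was kept if it was above the 40th percentile of its own array in at least 3 arrays, and the probe set with the highest mean stood for its gene (12147 genes). limma 3.58.1 in R 4.3.3 fitted 1 mean per group over all 15 arrays, with Benjamini-Hochberg adjustment over all genes. The fit was tested on simulated data with independent noise in each array, which cannot show how deviations shared between arrays affect the calls. Replicates are labelled as biological replicates without a named source, so p-values measure the spread between these samples. The genes and lists were chosen with earlier results of these data known. Named genes were those called in all 4 clones, up to 5 per direction, clone and ribosome, up to 5 per ribosome by the F test, a fixed set, and up to 3 per context list. Other genes named in the text, among them RPS15, RPL29, RPL8, RPS19, MRPS22, MRPS23, MRPS26, EPCAM and KRT19, were chosen after their values had been seen. Of the fixed set, RPLP0, RPLP1, RPLP2, RPSA, RPL3, RPL5, RPS4X and MRPL12 had no named probe set and MRPS12 was not called. snoRNA genes within the ribosomal protein genes were not analysed here. Alternatives were other filters, scalings, probe set rules and variance settings, a replicate block, fits on only the arrays compared, and each array left out.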

Additional observations from a re-analysis of the deposited data

Results flagged for a closer look

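For 21 ribosomal protein genes the change against parental cells differed among the clones by the limma F test over the 4 clones, and the adjusted p of that test follows. The smallest was that of MRPS33 (0.00051), high in C#3 and C#6, followed by MRPL18 (0.00113), low in C#3, and MRPL17 (0.00264), high in C#1 and C#2. MRPL50 (0.005) and RPS7 (0.00814) were low in C#6. MRPL54 (0.00553) changed by -0.22 in C#1 and 0.36 in C#6, and only the latter was called. MRPS30 (0.00563) and MRPS34 (0.00926) were higher in C#3 and C#6, and MRPL49 (0.00927) was lower in C#1 and C#2. MRPS28 (0.0116) was called in no clone against parental cells, but was higher in C#1 and C#2 than in C#3, by 0.53 and 0.42. RPL27 (0.0183) was not called against parental cells either, and was 0.39 and 0.47 higher in C#1 and C#2 than in C#6. The adjusted p was 0.0184 for RPL10, 0.0213 for RPL35 and 0.0219 for RPS15A among the other cytosolic genes. Among mitochondrial genes it was 0.0204 for MRPL51, 0.0211 for MRPL40, 0.0236 for MRPL57, 0.0254 for MRPL30, 0.0306 for MRPS10, 0.0376 for MRPL45 and 0.0442 for MRPS17.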

How the results depend on the processing

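The counts of called ribosomal protein genes were 27 in C#1, 21 in C#2, 23 in C#3 and 33 in C#6, 21 in the F test and 59 over the 6 pairs of clones. At an adjusted p below 0.01 they were 6, 10, 7, 15, 9 and 21. With only the arrays compared in the fit, the pairs gave 24. With 1 array left out, the counts ranged from 9 to 29 in C#1, 11 to 27 in C#2, 11 to 24 in C#3, 21 to 34 in C#6, 16 to 26 in the F test and 39 to 60 over the pairs. Leaving out parental replicates lowered the counts most in C#1 (12, 10 and 9 without replicates 1, 2 and 3), and in C#3 each of the 6 arrays compared moved the count (13, 13 and 11 without the parental replicates and 11, 14 and 13 without those of C#3). C#1 fell to 13 and 15 without its own replicates 1 and 3, C#2 to 11 and 13 without parental replicates 2 and 3, C#6 to 21 without parental replicate 2 or C#6 replicate 2, and the pairs to 39 without C#6 replicate 3. The cause was not tested. The other alternatives, which were filters on dim probe sets, both rescalings, trended variance, array weights and the mean of probe sets, moved these counts by less than 1.5 times. Of the 104 calls, 43 were lost under at least 1 setting other than leaving out an array. Same-numbered replicates did not all deviate together (correlations from -0.129 to 0.462, over 0.1 in 10 of 30 pairs), so the numbers were not taken to pair the samples. The 10 were all among the 18 pairs of 2 clones, the 6 of replicate 1 included, and none was among the 12 pairs with parental cells. Against parental cells, a fit with the replicate number as a block called 27, 24, 22 and 32 genes, of which 26, 21, 22 and 31 were also called without it. The counts of the F test and of the pairs of clones given above are from fits without the block. They do not account for deviations that clones share by replicate number. The calls of RPL36 and MRPS26 in C#6, MRPL35 in C#1, MRPS27 in C#3 and NOP10 in C#2 passed the threshold only without the block.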
